A study of Mus musculus with 6 samples.

Results

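ATF3 binding around 41 lysosome and autophagy genes was examined in the ChIP-seq peak lists of mouse bone marrow-derived macrophages (BMDMs). The members were taken by name, and each peak was assigned to a gene by the annotation deposited with the lists. Of the 41 genes, 19 had a peak in at least 1 of the 6 lists and 22 had none. They held 71 of the 16759 listed peaks, in lists that name 4908 genes in all. A gene without a listed peak is not a gene without tags, since tags are given inside listed peaks only.

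Lysosomes are acidic organelles that break down cargo delivered by endocytosis, phagocytosis and autophagy, and they are prominent in macrophages. A vacuolar proton pump (V-ATPase) acidifies them, hydrolases such as the cathepsins digest their content, and autophagy brings cytoplasmic material to them. Transcription factors of the MiT/TFE family (TFEB, TFE3, MITF and TFEC) bind the CLEAR element at many of these genes, whereas ATF3, a bZIP protein induced by stress, recognises AP-1 and CRE elements.

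BMDMs were grown from C57BL/6 marrow, either wild type (WT, Atf3 +/+) or ATF3-deficient (KO, Atf3 -/-), with M-CSF at 40 ng/ml. WT mice were 6 to 8 weeks old, and KO cells were compared with WT controls matched for age and sex. Each genotype was studied unstimulated, after HDL (2 mg/ml, 6 h), and after the same HDL pretreatment with CpG (100 nM, 4 h) added, so that every CpG sample had also received HDL. HDL is a lipoprotein that takes up cellular cholesterol, and CpG DNA activates Toll-like receptor 9. Chromatin was precipitated with a rabbit polyclonal antibody against ATF3. The growth protocol also describes immortalised BMDMs, and the labels call the samples bone marrow-derived macrophages without saying more.

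The protocol names 3 biological replicates, but the lists hold 1 pooled WT and 1 pooled KO library per condition, so all tests below compare libraries and not replicated conditions. Library totals lay between 37137377 and 75534584 reads, and genotype or condition cannot be told apart from library. Since the cultures are bulk samples, fewer cells with a bound site and less binding per cell cannot be told apart either. Genomic DNA holds no marker expression against which the cell type could be checked. At the start site of Atf3 itself the standard peak held 16.69 WT and 9.66 KO normalised tags in unstimulated cells, 21.88 and 12.11 with HDL, and 15.36 and 7.79 with HDL + CpG. These tags count precipitated DNA, so they do not check the loss of the ATF3 protein in KO cells.

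A standard peak is one called on the WT library alone, and a KOIN peak is one called with the KO library as control. The paper describes 2 further filters. Peaks shared with those called on the KO library were left out, and at least 2 times as many normalised tags were required in WT as in KO. Normalised tags are reads in the peak scaled to a library of 10000000 reads. The WT/KO ratio of these tags is given below with an exact 95% interval, which covers counting error only. Sites are named by gene and by the distance of the peak centre from the start site in kb, with a minus sign for upstream positions. All coordinates are mm9.

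After merging overlapping peaks of all lists, the 19 genes had 36 sites, of which 23 carried a KOIN peak in at least 1 condition. AP-1 or CRE letters lie in 15 of these 23 sites, at Tfec +392.9 kb outside the KOIN peak itself. Those of 10 sites are printed here because they are the recognition letters under peaks that remained after KOIN. Capitals mark a match to the AP-1 sequence TGACTCA or to the CRE TGACGTCA, on either strand. All lines give the plus strand of mm9, 5′ to 3′, with 30 bases on either side of the match.
Atp6v1b2 −81.5 kb, chr8:71531136-71531203: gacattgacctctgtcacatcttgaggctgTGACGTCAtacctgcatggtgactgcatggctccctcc
Atp6v1b2 −75.8 kb, chr8:71536660-71536726: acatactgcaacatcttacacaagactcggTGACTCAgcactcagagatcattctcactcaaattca
Atp6v1c1 +48.5 kb, chr15:38640137-38640203: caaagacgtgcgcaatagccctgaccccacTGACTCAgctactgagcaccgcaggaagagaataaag
Ctsb +10.0 kb, chr14:63751256-63751322: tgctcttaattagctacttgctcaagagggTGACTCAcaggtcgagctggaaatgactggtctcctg
Ctsb +10.0 kb, chr14:63751298-63751364: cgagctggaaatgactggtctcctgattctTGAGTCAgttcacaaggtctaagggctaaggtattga
Ctsd −5.5 kb, chr7:149579213-149579279: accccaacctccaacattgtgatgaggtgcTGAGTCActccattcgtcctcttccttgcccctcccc
Ctsd −5.5 kb, chr7:149579258-149579324: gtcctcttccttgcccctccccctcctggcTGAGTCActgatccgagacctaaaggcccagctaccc
Hexa +5.1 kb, chr9:59392653-59392719: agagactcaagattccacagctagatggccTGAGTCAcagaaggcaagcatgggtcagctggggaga
Lyst −38.2 kb, chr13:13644442-13644508: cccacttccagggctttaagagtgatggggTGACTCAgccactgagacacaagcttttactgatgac
Psap −8.5 kb, chr10:59731775-59731841: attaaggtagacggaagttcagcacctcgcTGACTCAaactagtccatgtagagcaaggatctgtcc
Sqstm1 −2.3 kb, chr11:50026701-50026767: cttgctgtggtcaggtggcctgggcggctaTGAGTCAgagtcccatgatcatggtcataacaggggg
Mitf +48.7 kb, chr6:97805889-97805955: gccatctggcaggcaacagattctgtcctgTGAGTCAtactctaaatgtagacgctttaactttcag

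The promoters of Becn1 and Grn carried a KOIN peak, and the 201 bases around the centre of each HDL peak are given because they differ in these letters. The Becn1 window holds a CRE, in capitals, whereas none of the 4 sequences searched lies in the Grn window.
Becn1 −0.1 kb, chr11:101163454-101163654: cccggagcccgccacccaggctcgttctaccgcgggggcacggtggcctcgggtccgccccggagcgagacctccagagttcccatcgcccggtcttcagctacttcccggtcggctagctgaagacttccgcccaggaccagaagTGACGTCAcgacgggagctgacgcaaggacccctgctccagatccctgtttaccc
Grn −0.1 kb, chr11:102291405-102291605: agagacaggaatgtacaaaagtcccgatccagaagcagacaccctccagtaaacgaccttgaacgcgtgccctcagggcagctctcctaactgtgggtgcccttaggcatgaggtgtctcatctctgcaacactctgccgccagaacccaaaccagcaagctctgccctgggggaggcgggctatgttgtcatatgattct

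KOIN peaks were found at 15 of the 41 members. Of these, 10 had KOIN peaks in 1 condition, 4 in 2 conditions and 1, Ctsb, in all 3. Atp6v1a, Ctsk, Ctss and Mcoln2 had standard peaks only. By role, KOIN peaks were present at the 3 of 3 MiT/TFE factors in the list, which leaves out TFE3, and at 6 of 13 hydrolases and their cofactors. They were present at 0 of 4 lysosomal membrane proteins and channels, 2 of 6 V-ATPase subunits, 3 of 11 autophagy genes and 1 of 4 genes of endolysosomal traffic. The share of all genes with a KOIN peak was not computed, so these counts do not set the members apart. By condition, 12 members had a KOIN peak with HDL, 7 with HDL + CpG and 2 in unstimulated cells, in the order of the whole lists (2486, 1065 and 563 genes). Without the HDL libraries the count was 8 members.

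The share of genes kept by KOIN was lowest in unstimulated cells and highest with HDL, for the members and for all genes. Among unstimulated members with a standard peak, 1 of 5 also carried a KOIN peak (20%, Wilson 95% interval 3.62 to 62.4), against 24.9% of all 2216 genes with a standard peak. With HDL it was 11 of 17 (64.7%, 41.3 to 82.7) against 63% of 3874 genes. With HDL + CpG it was 6 of 10 (60%, 31.3 to 83.2) against 34.9% of 2888 genes, a level that the interval of the members includes.

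Counted by peak, 1 of 6, 13 of 24 and 7 of 13 standard peaks of members were overlapped by a KOIN peak. The shares over all standard peaks were 20.7% of 2779, 54.9% of 5319 and 29.7% of 3790. The interval of the members includes the value of all peaks in unstimulated cells (3.01 to 56.4%) and with HDL (35.1 to 72.1%), and, by a narrow margin, with HDL + CpG (29.1 to 76.8%). A difference between members and all peaks was thus not detectable over all scores. A score minimum of 60 was also applied, to standard and KOIN peaks alike. The shares of the members were then higher than those of the whole lists in both stimulated conditions, on 7 member peaks each. These were 7 of 7 with HDL (64.6 to 100%) against 43.7%, and 4 of 7 with HDL + CpG (25.0 to 84.2%) against 19.4%. At a minimum of 100 they were 0 of 1 with HDL against 20.6%, and 2 of 2 with HDL + CpG against 5.28%. Peaks of the same gene are not independent, and the members were chosen with earlier results known. The intervals are thus a description, and no test was made.

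**Figure D1:**
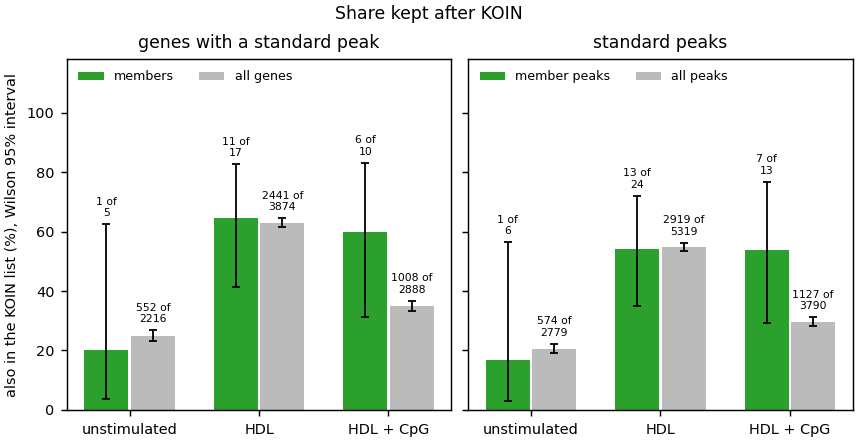
Share of genes whose standard peak comes with a KOIN peak (left) and of standard peaks overlapped by a KOIN peak (right), in percent, for the members (green) and for all genes or peaks (grey), with Wilson 95% intervals as bars and counts above them. With HDL the members (11 of 17 genes, 13 of 24 peaks) lie close to the whole lists, and with HDL + CpG the members' bars are higher with genes' and peaks' intervals that include the shares of 34.9% and 29.7%.

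Kept peaks were also counted by distance, as a description of small numbers. Of the 24 standard peaks of members with HDL, 8 lay within 10 kb of a start site and 3 of these were kept, whereas 8 of the 14 at 10 to 100 kb and both beyond 100 kb were kept. With HDL + CpG, 3 of 3 within 10 kb were kept, 4 of 8 at 10 to 100 kb and 0 of 2 beyond 100 kb. Over all standard peaks, 59.8%, 57.3% and 46.1% in these 3 ranges were kept with HDL, and 44.7%, 32.4% and 13.9% with HDL + CpG. The members' standard peaks lay at a median of 15.7 kb from a start site with HDL and 19.1 kb with HDL + CpG, against 33.0 and 36.2 kb over all standard peaks. In unstimulated cells the medians were 46.7 kb for members and 45.9 kb for all. In the HDL list 13 of the 24 were intergenic, 9 intronic, 1 at a promoter and 1 at a transcript end.

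WT reads were then set against KO reads in each standard peak with an exact binomial test adjusted by Benjamini-Hochberg over all standard peaks of the condition. WT reads were higher at an adjusted p below 0.05 in 4 of 6 member peaks in unstimulated cells, where the same held for 56.2% of all standard peaks. With HDL it was 21 of 24 against 79.5%, and with HDL + CpG 9 of 13 against 40.9%. No member peak was called higher in KO, and few of all standard peaks were (25 of 2779, 48 of 5319 and 108 of 3790). Standard peaks were called on these same WT reads, so higher WT reads are partly fixed by the choice of peaks. The median WT/KO ratio of member peaks was 1.86, 2.79 and 2.29 in the 3 conditions, and that of all standard peaks 1.66, 2.41 and 1.42.

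Repeats moved with these values. Standard peaks on satellite, simple or low-complexity repeats, of which there were 851, 1280 and 883, had a median WT/KO ratio of 1.64 in unstimulated cells, 2.39 with HDL and 1.00 with HDL + CpG. When KO was scaled so that these medians became 1, which shifts every log2 ratio by 0.71, 1.25 and 0.01, 0 of 6 member peaks in unstimulated cells and 0 of 24 with HDL were called. Of all standard peaks, 10.7% and 6.88% were then called. With HDL + CpG the count stayed at 9 of 13 member peaks. Which scaling is right was not tested.

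**Figure D2:**
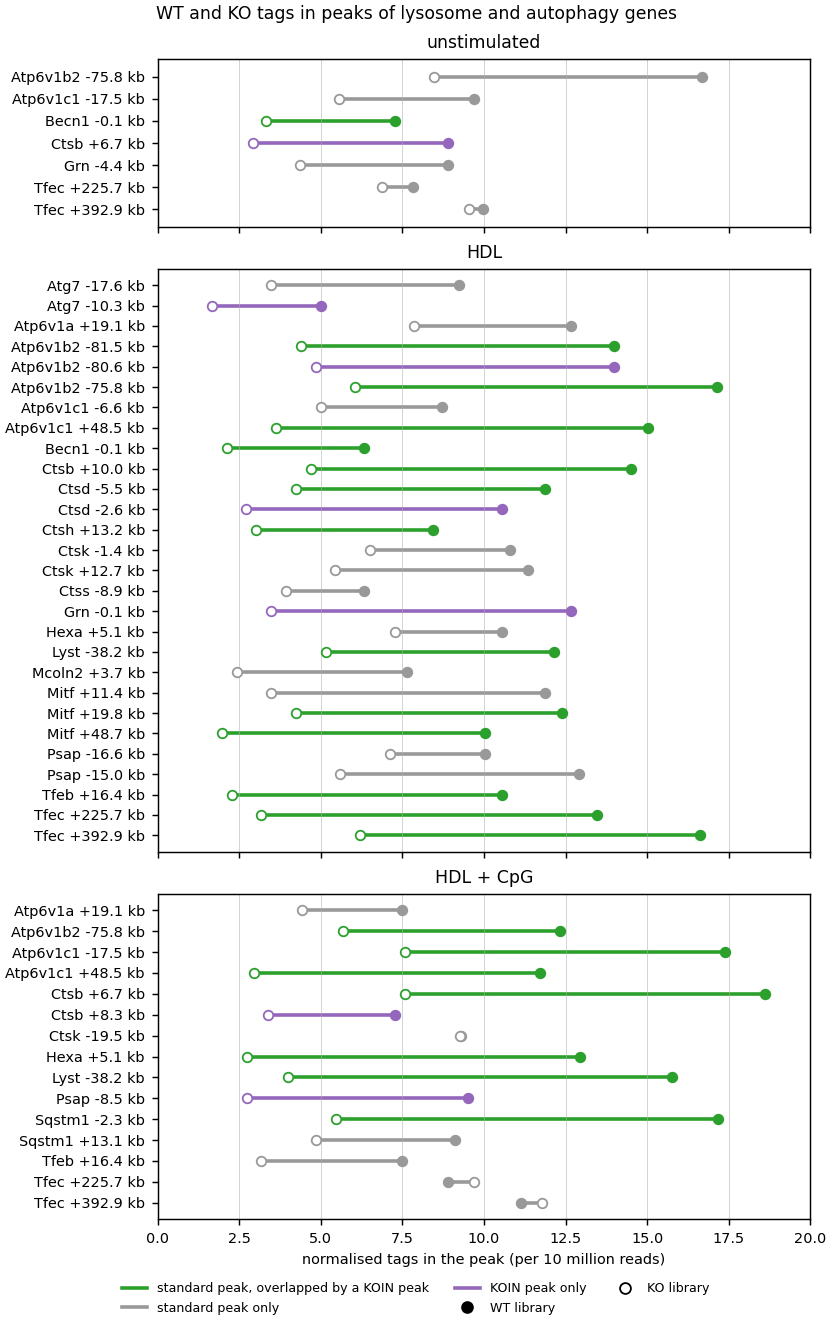
Normalised tags per 10000000 reads in every listed peak of the members, by condition, with the WT library as filled and the KO library as open circles. Peaks kept by KOIN are green, standard peaks without a KOIN peak grey and KOIN peaks without a standard peak purple, and KO tags exceed WT tags only at the 2 Tfec sites with HDL + CpG.

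The 3 MiT/TFE factors of the list each had a KOIN peak with HDL, and none was listed in the other conditions, although the change between conditions was not called at Tfeb and was not tested at Mitf. Tfeb, the main activator of lysosomal genes, had 1 site in its intron 1, at +16.4 kb (chr17:47891001-47891643), with 10.55 WT and 2.27 KO tags (WT/KO 4.64, 2.51 to 9.05). The same site was, with HDL + CpG, a standard peak of 7.48 and 3.16 tags, with WT/KO at 2.37 (1.27 to 4.65), and it was not kept although its ratio was above 2. The second ratio was 0.510 times the first (0.201 to 1.29, Fisher's exact test with the odds set by the library totals, adjusted p = 0.241), so a difference was not detectable at this depth. No unstimulated peak was listed at Tfeb.

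Mitf, the melanocyte and osteoclast member of the family, had 3 intronic sites, all with HDL and all in intron 1. The KOIN peak at +48.7 kb (chr6:97805400-97806188) held 10.02 WT and 1.97 KO tags, or 5.09 times as many in WT (2.65 to 10.4), the highest of all member peaks. The KOIN peak at +19.8 kb (chr6:97776490-97777245) held 12.39 and 4.24 tags, a ratio of 2.92 (1.79 to 4.85). At +11.4 kb (chr6:97768038-97768893) the ratio was 3.41 with 11.86 and 3.48 tags, yet no KOIN peak was called there.

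Tfec, a family member expressed in macrophages, had its 2 sites far downstream, at +225.7 kb (chr6:16622240-16623215) and +392.9 kb (chr6:16455103-16455967). With HDL the first held 13.45 WT and 3.18 KO tags and the second 16.61 and 6.21, and both were kept. In unstimulated cells they held 7.81 and 6.88, and 9.96 and 9.53 tags, and with HDL + CpG 8.89 and 9.68, and 11.12 and 11.79. The lists annotate the peaks of both sites to simple repeats, apart from the unstimulated peak at +392.9 kb, which is annotated to an LTR element. The WT and KO libraries differed there with HDL alone. After scaling to repeat peaks these HDL ratios were 1.77 and 1.12, and neither was called.

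For +225.7 kb the WT/KO ratio was 1.13 in unstimulated cells, 4.23 with HDL and 0.919 with HDL + CpG. The ratio with HDL was 3.73 times the unstimulated value (95% interval 1.79 to 7.82, exact test, adjusted p = 0.00173), and with HDL + CpG it was 0.217 times the HDL value (0.107 to 0.438, exact test, adjusted p = 3.45e-05). At +392.9 kb the ratios were 1.05, 2.68 and 0.943, with changes of 2.56 times (1.41 to 4.65, exact test, adjusted p = 0.00797) and 0.352 times (0.198 to 0.627, exact test, adjusted p = 9.16e-04). When each condition was scaled to its own repeat peaks, 1 of these 4 differences was still called, the rise from unstimulated to HDL at +225.7 kb (2.56 times, exact test, adjusted p = 0.0471). The other 3 were then 1.76 times (exact test, adjusted p = 0.173), 0.516 times (0.103) and 0.837 times (0.697).

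Among the hydrolases, Ctsb, a cysteine protease, had 3 sites in its intron 1, and the listed site differed between conditions. At +6.7 kb a KOIN peak was listed in unstimulated cells (chr14:63747704-63748493, 8.89 WT and 2.91 KO tags, ratio 3.05, 1.73 to 5.49) and with HDL + CpG (chr14:63747462-63748446, 18.60 and 7.58 tags, ratio 2.45, 1.65 to 3.72). With HDL the KOIN peak lay at +10.0 kb (chr14:63750878-63751712, 14.50 and 4.69 tags, ratio 3.09, 1.95 to 4.97), over the 2 AP-1 matches printed above. A further KOIN peak with HDL + CpG lay at +8.3 kb (chr14:63749297-63749855, 7.28 and 3.37 tags, ratio 2.16, 1.17 to 4.17). The unstimulated peak and that at +8.3 kb had no standard peak under them.

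Ctsd, the main aspartic protease, had 2 upstream sites with HDL alone. The site at −5.5 kb (chr7:149578795-149579729) was in both lists with 11.86 WT and 4.24 KO tags, or 2.80 times as many in WT (1.71 to 4.66). The site at −2.6 kb (chr7:149575932-149576764), with 10.55 and 2.72 tags and a ratio of 3.87 (2.17 to 7.17), was in the KOIN list only. Ctsh, an aminopeptidase, had 1 KOIN site with HDL, at +13.2 kb in intron 8 (chr9:89962013-89962629), with 8.44 and 3.03 tags and a ratio of 2.79 (1.55 to 5.14). None of these sites had a peak in the other conditions.

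Hexa, the alpha subunit of beta-hexosaminidase, which degrades gangliosides, had the only called difference with a higher ratio in HDL + CpG. The site at +5.1 kb in intron 1 held 10.55 WT and 7.27 KO tags with HDL (chr9:59392251-59392945) and 12.94 and 2.74 with HDL + CpG (chr9:59392352-59393143). The peaks were 695 bp long with HDL and 792 bp with HDL + CpG. In these unlike windows WT tags were close while KO tags were lower with HDL + CpG. The ratio was 1.45 (0.930 to 2.26), with no call and no KOIN peak, against 4.73 (2.58 to 9.36), with a KOIN peak. The second was 3.26 times the first (1.496 to 7.33, exact test, adjusted p = 0.00611), and 7.74 times (exact test, adjusted p = 7.73e-08) after scaling to repeat peaks.

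Psap, the precursor of the saposins that assist sphingolipid hydrolases, had 3 upstream sites. The KOIN peak at −8.5 kb (chr10:59731559-59732164, HDL + CpG) held 9.50 WT and 2.74 KO tags, or 3.47 times as many in WT (1.85 to 6.99), with no standard peak under it. With HDL, standard peaks lay at −15.0 kb (12.92 and 5.60 tags, ratio 2.31, the most WT tags of sites without a KOIN peak) and at −16.6 kb (10.02 and 7.11 tags, ratio 1.41), and neither was kept.

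Grn encodes progranulin, which is cut to granulins inside lysosomes. With HDL its promoter carried a KOIN peak at −0.1 kb (chr11:102291162-102291848) of 12.65 WT and 3.48 KO tags, or 3.63 times as many in WT (2.17 to 6.26), and no standard peak. In unstimulated cells a standard peak lay at −4.4 kb (chr11:102286881-102287589) with 8.89 and 4.37 tags. Its ratio of 2.03 (lower bound 1.22) was the closest to 2 from above among the members' standard peaks, and it was not kept. The closest from below was Atp6v1b2 −75.8 kb in unstimulated cells, at 1.97.

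Ctsk and Ctss, neighbouring genes for cysteine proteases that cut collagen and the invariant chain, had 4 standard peaks and no KOIN peak. At Ctsk −1.4 kb (chr3:95301321-95302197, HDL), annotated to the transcript end of Arnt, 10.81 WT and 6.51 KO tags gave a ratio of 1.66 (1.06 to 2.61). At Ctsk +12.7 kb (HDL) the ratio was 2.08, and at Ctsk −19.5 kb (HDL + CpG), in an intron of Arnt, 9.30 and 9.26 tags gave 1.00. At Ctss −8.9 kb (chr3:95321519-95322025, HDL), on a CA repeat, 6.33 and 3.94 tags gave 1.61 (0.884 to 2.91), with no call. No peak was listed at Ctsa, Ctsl, Ctsz, Gaa or Neu1.

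Of the lysosomal membrane proteins, Mcoln2, a cation channel of the mucolipin family, had 1 standard peak. It lay at +3.7 kb in intron 1 with HDL (chr3:145816569-145817175), with 7.65 WT and 2.42 KO tags. The ratio of 3.16 (1.66 to 6.22, exact test, adjusted p = 3.27e-04) was above that of many kept peaks, but no KOIN peak was called. No peak was listed at Lamp1, Mcoln1 or Mcoln3.

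In all, 7 standard peaks of members had a ratio of 2 or more and were not kept: 1 in unstimulated cells, 5 with HDL and 1 with HDL + CpG, of 2, 18 and 8 with such a ratio. Over all standard peaks it was 295 of 869, 625 of 3544 and 188 of 1315. Conversely, 7 KOIN peaks of members had no standard peak under them, 1, 4 and 2 in the 3 conditions. In the whole lists this was so for 21 of 595, 125 of 3044 and 105 of 1232 KOIN peaks.

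Among V-ATPase subunits, Atp6v1b2, a B subunit of the catalytic sector, had 3 intergenic sites far upstream, and the start site of Slc18a1 lies at almost the same distance from them. The site at −75.8 kb was the only member site away from Tfec with a peak in all conditions. It held 16.69 WT and 8.47 KO tags in unstimulated cells, 17.14 and 6.05 with HDL (chr8:71536440-71537204) and 12.33 and 5.68 with HDL + CpG (chr8:71536158-71536966). The ratios of 1.97 (1.37 to 2.84), 2.83 (1.88 to 4.31) and 2.17 (1.36 to 3.55) did not differ beyond counting error in any pair (exact test, adjusted p = 0.385, 0.892 and 0.611). KOIN kept the site in both stimulated conditions and not in unstimulated cells.

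The 2 other Atp6v1b2 sites were listed with HDL only. At −81.5 kb (chr8:71530666-71531528), over the CRE printed above, 13.97 WT and 4.39 KO tags gave 3.18 (1.99 to 5.19). At −80.6 kb (chr8:71531709-71532369) 13.97 and 4.84 tags gave 2.88 (1.83 to 4.62), in the KOIN list alone.

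Atp6v1c1, the C subunit that joins the sectors of the pump, had 3 sites. At +48.5 kb 15.03 WT and 3.63 KO tags were found with HDL (chr15:38639805-38640583) and 11.72 and 2.95 with HDL + CpG (chr15:38639836-38640449), and both were kept. The ratios of 4.14 (2.53 to 6.97) and 3.98 (2.19 to 7.72) lay close together, with a change of 0.962 times (0.427 to 2.22). This site, with an AP-1 match 24 and 28 bp from the centres of the 2 peaks, lies downstream of the gene.

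At −17.5 kb Atp6v1c1 had 9.69 WT and 5.56 KO tags in unstimulated cells (chr15:38573721-38574505, ratio 1.74, 1.09 to 2.79, not kept) and 17.39 and 7.58 with HDL + CpG (chr15:38573794-38574735, ratio 2.29, 1.54 to 3.49, kept). Tags of both libraries were higher with HDL + CpG, in a longer peak (942 against 785 bp). The ratio was 1.32 times the unstimulated value (0.698 to 2.48, exact test, adjusted p = 0.637). At −6.6 kb (chr15:38584810-38585342) a standard peak with HDL held 8.70 and 5 tags, a ratio of 1.74 (1.04 to 2.91). Atp6v1a, the catalytic A subunit, had a standard peak at +19.1 kb in intron 1 and was not kept. With HDL it held 12.65 WT and 7.87 KO tags (ratio 1.61, 1.06 to 2.43) and with HDL + CpG 7.48 and 4.42 (ratio 1.69, 0.965 to 3.04, no call). No peak was listed at Atp6v0a1, Atp6v0d2 or Atp6v1h.

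**Figure D3:**
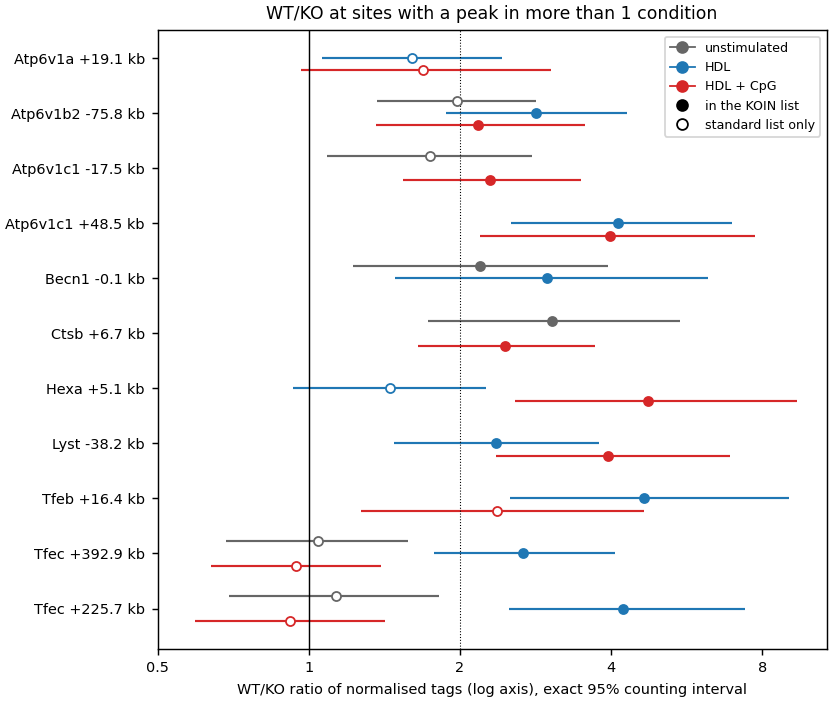
WT/KO ratio of normalised tags on a log axis for the 11 member sites with a peak in more than 1 condition, by condition (grey unstimulated, blue HDL, red HDL + CpG), with exact 95% counting intervals. Filled points are in the KOIN list, the solid line marks a ratio of 1 and the dotted line the filter at 2, and the intervals of Hexa and of both Tfec sites with HDL lie apart from those of another condition.

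Among autophagy genes, Becn1, a subunit of the class III phosphatidylinositol 3-kinase complex that starts autophagosomes, was the only member with a standard promoter peak that KOIN kept. Its promoter held 7.27 WT and 3.31 KO tags in unstimulated cells (chr11:101163380-101163949, ratio 2.20, 1.23 to 3.95) and 6.33 and 2.12 with HDL (chr11:101163273-101163836, ratio 2.99, 1.48 to 6.24). The levels were low, with scores of 42.54 and 40.78 where the lowest listed score is 40. The ratios did not differ beyond counting error (1.36 times, 0.534 to 3.51, exact test, adjusted p = 0.734). The CRE printed above lies 60 and 50 bp from the centres of these peaks.

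Sqstm1 encodes p62, a receptor that carries ubiquitinated cargo into autophagosomes. At −2.3 kb a KOIN peak with HDL + CpG (chr11:50026064-50027211) held 17.18 WT and 5.47 KO tags, or 3.14 times as many in WT (2.00 to 5.08, exact test, adjusted p = 9.31e-07 in the standard list). The lists annotate it as intergenic, whereas GENCODE vM1 places the centre of this peak inside Mgat4b, whose start site is slightly nearer (2.25 kb) than that of Sqstm1 (2.31 kb). A standard peak at +13.1 kb, in an intron of the neighbouring gene 3010026O09Rik, had a ratio of 1.88 and was not kept. No peak was listed at Sqstm1 with HDL alone or in unstimulated cells.

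Atg7, the E1-like enzyme of the autophagy conjugation systems, had 2 intergenic sites with HDL. The KOIN peak at −10.3 kb (chr6:114582500-114583056) had the fewest WT tags of all member peaks, 5.01 against 1.67 in KO, a ratio of 3.01 (1.36 to 6.997), with no standard peak. The standard peak at −17.6 kb, on a TC repeat, held 9.23 and 3.48 tags, a ratio of 2.65, and was not kept. Thus Atg7 had both kinds of peak at different places. No peak was listed at Map1lc3b, Gabarapl1, Ulk1, Ulk2, Atg5, Atg16l1, Optn or Wipi1.

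Lyst, which controls lysosome size and traffic and is mutated in beige mice, was the only gene of endolysosomal traffic with a peak. Its site at −38.2 kb held 12.13 WT and 5.15 KO tags with HDL (chr13:13644165-13644881) and 15.77 and 4.00 with HDL + CpG (chr13:13644059-13644933), and both were kept. The ratio was 2.36 (1.48 to 3.79) and 3.94 (2.36 to 6.90), a change of 1.67 times (0.815 to 3.47, exact test, adjusted p = 0.261). After scaling to repeat peaks the change was 3.98 times (exact test, adjusted p = 2.70e-04), so this call depended on the scaling. No peak was listed at Rab7, Rab20 or Rab32.

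Between conditions, WT/KO was compared wherever standard peaks overlapped by at least 1 bp. Each condition was counted in its own peak, so the windows compared are not identical. From unstimulated to HDL 2 of 4 member sites differed, against 21.7% of the 2011 pairs tested, and from unstimulated to HDL + CpG 0 of 4, against 27.6% of 1749 pairs. None of these 4 had an unadjusted p below 0.05 either. From HDL to HDL + CpG 3 of 8 differed, against 35.8% of 2394 pairs. Over all pairs the median change from HDL to HDL + CpG was 0.709 times and for members 0.864 times. With these numbers the members cannot be set apart from the whole lists.

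Most sites were listed in a single condition. Of the 36 sites, 25 were found in 1 condition, 8 in 2 and 3 in all 3, and 19 were found with HDL only, 5 with HDL + CpG only and 1 in unstimulated cells only. The same count was not made for the whole lists, so it does not set the members apart. The HDL lists are the longest of all, with 5319 standard and 3044 KOIN peaks. KOIN peaks in 2 conditions were found at 5 sites (Becn1 −0.1 kb, Ctsb +6.7 kb, Atp6v1b2 −75.8 kb, Atp6v1c1 +48.5 kb and Lyst −38.2 kb), and at no site in all 3.

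The AP-1 sequence TGACTCA was then searched within 100 bp of peak centres on both strands, beside the CRE TGACGTCA, the C/EBP-ATF composite sequence TGATGCAA and the CLEAR sequence TCACGTGA. None of these sequences contains another. AP-1 was found in 6 of 9 KOIN peaks of members with HDL + CpG (66.7%, Wilson 95% interval 35.4 to 87.9), against 37.5% of all 1232. Within 50 bp of the centre it was 2 of 9 against 23.7%. With HDL the share within 100 bp was 4 of 17 (23.5%, 9.56 to 47.3) against 21.5% of 3044, and in unstimulated cells 0 of 2 against 26.1% of 595. In each condition the interval within 100 bp includes the share of the whole KOIN list. In standard peaks AP-1 was found in 2 of 6, 6 of 24 and 5 of 13 member peaks, against 9.36%, 16.4% and 16.6% of all. The interval of the members includes the share of all peaks with HDL (12.0 to 44.9) and lies just above it in unstimulated cells (9.68 to 70.0) and with HDL + CpG (17.7 to 64.5). Within 50 bp of the centre it includes the share in both, with 1 of 6 (3.01 to 56.4) against 5.79%, and 2 of 13 (4.33 to 42.2) against 10.3%. Peaks of the same gene are not independent, so these intervals are a description and no test was made.

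**Figure D4:**
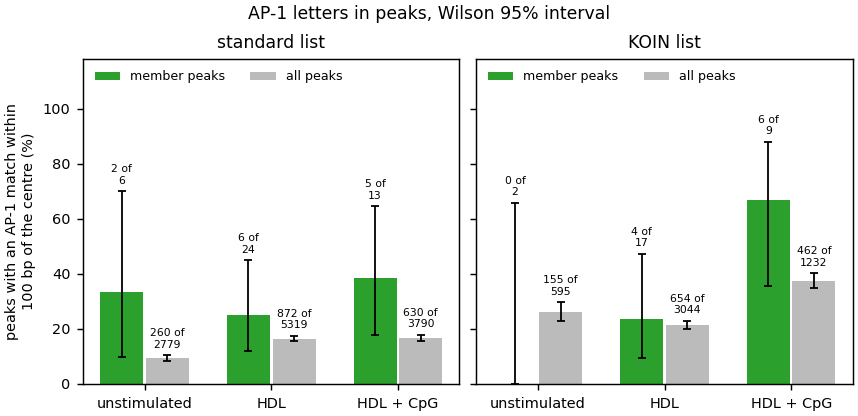
Percent of peaks with an AP-1 match within 100 bp of the centre, in the standard (left) and KOIN list (right), for member peaks (green) and all peaks (grey), with Wilson 95% intervals and counts above the bars. The highest bar is that of member KOIN peaks with HDL + CpG, 6 of 9 against 37.5% of all, and the members' intervals are wide throughout.

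By site and over whole peaks, 13 of the 23 sites with a KOIN peak and 3 of the 13 others held AP-1. At Tfec +392.9 kb the match lay outside the KOIN peak, in the standard peaks of unstimulated cells and HDL + CpG. The whole lists were counted by peak, a unit unlike the merged sites. There AP-1 lay in 40.5%, 34.3% and 50.9% of KOIN peaks and in 20.3%, 28.03% and 27.9% of standard peaks of the 3 conditions. The share was higher in the KOIN list of each condition. The sites of Atp6v1b2, Atp6v1c1, Ctsb, Ctsd and Sqstm1 included some with 2 matches. The CRE occurred at 2 sites, Becn1 −0.1 kb and Atp6v1b2 −81.5 kb, both with KOIN peaks. Within 100 bp of the centre it lay in 2 of 17 member KOIN peaks with HDL (11.8%, 3.29 to 34.3) and in 1.02% of all. The composite sequence occurred at 2 sites with standard peaks only, Atp6v1a +19.1 kb and Atp6v1c1 −6.6 kb. No CLEAR match was found in any member peak, where 0.920% of all HDL KOIN peaks held one over the whole peak.

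In RefSeq promoters of GRCm38.p6, from 250 bases before to 50 after the start, 33 of the 41 members could be matched. CLEAR was found at 4 of them (12.1%), Atp6v1a, Ctsa, Ctsd and Mcoln1, against 0.974% of 32851 promoters. AP-1 was found at Neu1 and Psap (6.06% against 5.20%) and the CRE at Atg5 and Mitf (6.06% against 1.79%). Members were counted by gene, over 40 promoters, and the whole set by promoter, so these shares have unlike units. A gene with several promoters has more places for a match. CLEAR is known at many genes of this kind, so its share here is a description and was not tested. The lists assign no promoter peak to any of these 8 genes, and peaks assigned to them lay 2.57 kb (Ctsd) or more from the listed start site. Peaks assigned to other genes were not searched at these promoters, and the start sites of the lists can differ from those used here. Becn1, whose promoter carried KOIN peaks over the CRE printed above, was among the members that could not be matched. These matches describe letters and do not show binding.

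A wider list of 151 other genes of the lysosome, autophagy and their control was counted in the same way. Of these, 39 had a peak and 27 a KOIN peak. By set, KOIN peaks were found at 14 of 57 lysosomal enzymes and membrane proteins, 0 of 11 further V-ATPase subunits, 7 of 40 autophagy genes and 6 of 43 genes of TFEB control and endolysosomal traffic. No share of all genes was computed beside these counts. Where a standard peak was listed, a KOIN peak was found as well for 5 of 14 genes (unstimulated), 17 of 31 (HDL) and 13 of 24 (HDL + CpG), beside 24.9%, 63% and 34.9% of all genes.

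The highest-scoring KOIN peaks of these sets were at Cd68 and Ctsc. Cd68, a lysosomal glycoprotein of macrophages, had a promoter peak with HDL + CpG (chr11:69479288-69480218) of 15.16 WT and 4.63 KO tags, or 3.27 times as many in WT (2.01 to 5.53). Ctsc, the dipeptidyl peptidase that activates granule proteases, had one at −6.5 kb with HDL of 20.30 and 3.48 tags, a ratio of 5.83 (3.62 to 9.74). For autophagy genes these were Vmp1 (2.74) and Pik3c3 (2.08), and for control and traffic Rptor (2.52, HDL + CpG) and Rab38 (2.11), the peaks of Pik3c3 and Rab38 lying on simple repeats.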

How the data were processed

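ATF3 ChIP-seq was available from 6 libraries of BMDMs, WT and KO in 3 conditions, as 6 peak lists. The authors aligned concatenated replicates to mm9 with Bowtie, keeping the best position of reads that map to several places, used MACS for peak calling and HOMER for annotation. Versions in the submitters' processing notes are HOMER 4.3, MACS 1.4.2, CASAVA 1.8 and Bowtie 0.12.8. The deposited score is the one MACS gave each peak. The deposited signal is the number of tags per peak, which the authors normalised to 10000000 reads. The deposited fold column, the authors' WT/KO ratio of normalised tags, was not used. The deposited list of barcodes holds no measurement and was not used.

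Since all tags lay within 0.005 tags of whole reads, read numbers were computed with the totals that the file headers give,  37137377 to 75534584 reads per library. Ratios have exact (Clopper-Pearson) 95% intervals and shares Wilson 95% intervals, for counting error only, since PCR copies are not independent. WT and KO reads were compared by a two-sided exact binomial test against the share set by the library totals, and ratios of 2 conditions by a two-sided Fisher's exact test whose null odds were set by the library totals, both with Benjamini-Hochberg adjustment over all peaks or pairs. KOIN peaks were not tested, since the authors selected them by a ratio of at least 2. Standard peaks were tested although they were called on the same WT reads, which favours WT. A standard peak counts as kept where a KOIN peak of the condition overlaps it by at least 1 bp. Both tests were run on simulated reads drawn from the counting model that they assume, which does not cover variation between libraries. Sequences were read from NCBIM37, the assembly of mm9, in which all 16759 peaks fit, and some sequences are not reported here. The annotation of the lists was used for gene names, and GENCODE vM1 for neighbouring genes.

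The members and the wider gene list were chosen with earlier results of these data known. Each site with a KOIN peak or within 10 kb of a start site is described, with the others by extremes and by their distance from a ratio of 2. In the wider list the 2 genes per set with the highest-scoring KOIN peak are named. Alternatives were score minimums of 60 and 100, distance limits of 10 and 100 kb, 50% overlap, repeats left out, Holm adjustment, a pseudocount of 1 tag, scaling to repeat peaks and windows of 50 bp or the whole peak. The software was scipy 1.17.1, pandas 2.3.3, numpy 2.4.6 and matplotlib 3.10.9 under Python 3.11.15.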

Additional observations from a re-analysis of the deposited data

Results flagged for a closer look

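WT/KO differed between conditions at 3 member sites by the test of the difference itself. At Hexa +5.1 kb the ratio with HDL + CpG was 3.26 times that with HDL. At Tfec +225.7 kb it was 3.73 times higher with HDL than in unstimulated cells, and with HDL + CpG it was 0.217 times the HDL value. At Tfec +392.9 kb the corresponding values were 2.56 and 0.352. Each value rests on 4 pooled libraries. Both Tfec sites are annotated to simple repeats, apart from the unstimulated peak at +392.9 kb. Standard peaks on satellite, simple or low-complexity repeats had a median ratio of 2.39 with HDL against 1.64 in unstimulated cells and 1.00 with HDL + CpG. Their part in the Tfec values was not tested beyond the scaling given in the report. With 1 library per group no value could be checked for outlying replicates.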

How the results depend on the processing

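With 1 pooled library per genotype and condition, there was no replicate to leave out and no spread between mice is known, so the tests cover counting error only. No paired analysis was possible because every group holds a single library. A pseudocount of 1 tag, under which no test was run, changed no direction, and an overlap of 50% changed no direction or call. Leaving out repeats and a distance limit of 100 kb kept the shares within their intervals and the counts of called member peaks within 1.5 times (4 of 5, 18 of 20 and 9 of 11 without repeats, where 56.9%, 78.4% and 52.4% of all were called). The alternatives that leave out repeats in the binomial test, that scale the differences to repeat peaks and that leave out a condition were chosen after seeing the data. Few genes remain at score minimums, and at 100 none of the members had an unstimulated standard peak. The minimums were applied to standard and KOIN peaks alike, so a KOIN peak below them no longer counted.

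With a score of at least 60, the share of genes and of peaks kept was 0% (0 of 2) in unstimulated cells, against 9.58% of all genes and 8.23% of all peaks. With HDL it was 100% (6 of 6 genes against 50.05%, 7 of 7 peaks against 43.7%), and with HDL + CpG 4 of 6 genes (30.0 to 90.3%) against 22.4% and 4 of 7 peaks against 19.4%. At 100 it was 0% with HDL (0 of 1), against 23.2% of all genes and 20.6% of all peaks, and 100% with HDL + CpG (2 of 2), against 6.03% and 5.28%. The HDL peak, Tfec +392.9 kb with a score of 140.46, was kept by KOIN, but its KOIN peak scored 91.77, below the minimum. Within 10 kb of a start site the share of genes was 37.5% with HDL (3 of 8; 61.6% of all genes) and 100% with HDL + CpG (3 of 3; 45.4%). Holm adjustment left 0 of 6, 11 of 24 and 5 of 13 member peaks called (20.8%, 35.4% and 14.7% of all peaks). Without the HDL libraries 8 members had a KOIN peak.

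Scaling to repeat peaks left 0 calls in unstimulated cells and 0 with HDL, and 1 called difference between these conditions. It turned the ratio below 1 at Tfec +225.7 kb (0.693) and +392.9 kb (0.638) in unstimulated cells. With HDL it did so at Atp6v1a (0.674), Atp6v1c1 −6.6 kb (0.730), Ctsk −1.4 kb (0.696) and +12.7 kb (0.872), Ctss (0.674), Hexa (0.608), Lyst (0.988) and Psap −16.6 kb (0.590) and −15.0 kb (0.967). None of these 11 was then called. From unstimulated to HDL it turned the change at Becn1 to 0.933 and at Atp6v1b2 −75.8 kb to 0.986 times. From unstimulated to HDL + CpG the Tfec sites became 1.47 (+392.9 kb) and 1.32 times. From HDL to HDL + CpG it gave 2.29 at Atp6v1c1 +48.5 kb, 1.21 at Tfeb and 1.82 at Atp6v1b2 −75.8 kb, none called, and it made Lyst (3.98) and Atp6v1a (2.50 times, exact test, adjusted p = 0.0203) called.

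Within 50 bp of the centre, AP-1 lay in 15.4% of standard and 22.2% of KOIN member peaks with HDL + CpG, against 10.3% and 23.7% of all. Over whole peaks it lay in 88.9% of the latter (56.5 to 98.0), against 50.9%, and in 45.8% of standard peaks with HDL (27.9 to 64.9), against 28.03%. Within 50 bp the CRE was found in 0% of member peaks of either list in unstimulated cells and with HDL, and the composite sequence in 0% of standard peaks with HDL.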
